A study of Mus musculus with 42 samples.

Results

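Acute phase proteins are plasma proteins whose transcripts in liver shift during inflammation, infection or tissue injury. The 10 transcripts described here encode serum amyloids A (Saa1, Saa2 and Saa3), orosomucoids (Orm1 and Orm2), haptoglobin (Hp), lipocalin 2 (Lcn2), hepcidin (Hamp), serum amyloid P component (Apcs) and hemopexin (Hpx). They were taken by gene symbol from the 20678 named genes on the array, and each had 1 probe among 55681.

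The samples came from male Muta™Mouse, a transgenic strain carrying a lacZ reporter for mutation assays, aged about 11 weeks. Mice received olive oil alone (D0, 0 mg/kg-bw/day) or BkF, the polycyclic aromatic hydrocarbon benzo(k)fluoranthene, in olive oil at 25 (D1), 50 (D2) or 100 (D3) mg/kg-bw/day by gavage for 28 days, and tissues were collected 72 hours after the last dose. Liver was available from 4, 2, 3 and 4 mice of D0, D1, D2 and D3, lung from 4, 3, 4 and 4, and forestomach from 4, 3, 4 and 3, in all 42 arrays from 15 mice. All groups shared the strain, the sex, the vehicle and the gavage, and the study's methods state that some mice of the BkF experiment were lost to accidental lung puncture during gavage. Each array set tissue RNA (Cy5, the sample channel) against a universal reference RNA pooled from mouse cell lines (Cy3, the reference channel), and a level is given as the log2 of the sample signal divided by the reference signal, after loess normalisation within the array.

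Most acute phase transcripts are made by hepatocytes and induced by cytokines, interleukin 6 through STAT3 and interleukin 1 through NF-kappaB, together with the C/EBP transcription factors. Saa1 and Saa2 are carried on high-density lipoprotein, whereas Saa3 is also made by macrophages and fat. Haptoglobin binds free haemoglobin and hemopexin binds haem. Lipocalin 2 binds bacterial siderophores and is also stored in neutrophil granules, hepcidin closes the iron exporter ferroportin, and the orosomucoids are small plasma carriers. Apcs is a pentraxin that is a main acute phase reactant in mice. The aryl hydrocarbon receptor, which BkF activates, binds a core letter sequence of its own (GCGTG).

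The regions upstream of the 4 members that the results turn on are shown first, since Saa1 and Saa2 moved together in liver while Saa3 and Lcn2 held the largest dose differences. Each is the 250 bases before the transcription start, 5′ to 3′ on the gene's strand, from RefSeq (GRCm38.p6, which is not the build named in the array files), and capitals mark the C/EBP letters TTGCNNAA on either strand.
Saa1, chr7:46742981-46743230: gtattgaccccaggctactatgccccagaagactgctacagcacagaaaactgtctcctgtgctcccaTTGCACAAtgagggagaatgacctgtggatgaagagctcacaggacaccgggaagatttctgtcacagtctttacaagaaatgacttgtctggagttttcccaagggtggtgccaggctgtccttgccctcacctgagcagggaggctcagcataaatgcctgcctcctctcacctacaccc
Saa2, chr7:46751583-46751832: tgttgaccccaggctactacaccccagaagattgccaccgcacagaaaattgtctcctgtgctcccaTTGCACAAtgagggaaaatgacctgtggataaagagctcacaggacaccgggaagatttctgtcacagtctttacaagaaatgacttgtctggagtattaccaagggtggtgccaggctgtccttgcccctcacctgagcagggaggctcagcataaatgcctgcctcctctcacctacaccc
Saa3, chr7:46715677-46715926: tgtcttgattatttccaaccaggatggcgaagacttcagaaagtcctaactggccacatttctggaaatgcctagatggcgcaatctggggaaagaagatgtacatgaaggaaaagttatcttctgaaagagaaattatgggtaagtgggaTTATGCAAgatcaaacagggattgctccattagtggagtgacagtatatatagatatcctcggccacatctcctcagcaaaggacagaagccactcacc
Lcn2, chr2:32387740-32387989: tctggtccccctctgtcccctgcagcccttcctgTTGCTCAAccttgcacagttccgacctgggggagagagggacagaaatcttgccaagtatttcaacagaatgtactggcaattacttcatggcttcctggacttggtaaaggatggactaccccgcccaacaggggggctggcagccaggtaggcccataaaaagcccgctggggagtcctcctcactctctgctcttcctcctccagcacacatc
Saa1 lies on the minus strand, as do Saa3 and Lcn2, and Saa2 lies on the plus strand. The Saa1 and Saa2 regions were identical at 238 of 251 aligned positions (94.8%), whereas Saa1 and Saa3 shared 132 of 263 (50.2%). Promoter entries were found for 8 of the 10 members, all but Orm1 and Hp. TTGCNNAA occurred in 6 of these 8 and in 9.56% of 32851 promoters of the same length. GCGTG occurred in 0 of the 8 and in 28.2% of all. Of the letters used for the other factors, GGG followed by CC at a fixed spacing (NF-kappaB) occurred in 3 of the 8 and 45.8% of all, TTCNNNGAA (STAT) in 2 and 7.02%, and CTGGGAA (a STAT3 element of acute phase genes) in 1 and 9.1%. Both strands were searched, and a match is a description of letters only.

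Between 28.1% and 60% of the probes of an array were well above background in the sample channel, and no member was flagged as saturated. Albumin and the other hepatocyte markers were at a mean log2 ratio of 7.07 to 7.89 in the 13 livers. Markers of other cells were high in single samples: skeletal muscle markers stood 6.15 log2 units above the median liver in D3 mouse 17, white fat markers 3.67 above in mouse 17 and 2.05 above in D3 mouse 20, and neutrophil markers 2.20 above in D2 mouse 13. In bulk tissue, fewer cells of a type and less RNA per cell cannot be told apart.

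The first question was whether BkF altered these transcripts in liver. A call required a limma adjusted p no higher than 0.05 together with a difference of 1.5-fold or more, and 0 of 10 members were called at D1, D2 or D3, and 0 for the trend with dose. Over all 30468 liver probes tested, 0% were called at D1, 0.0427% at D2, 0.0525% at D3 and 0% for the trend. An unadjusted p under 0.05 was reached by 0 members at D1 (against 1.53% of all probes), 2 at D2 (Saa3 and Lcn2, against 10.7% of all probes), the same pair at D3 (against 7.8%) and 3 for the trend (Saa3, Lcn2 and Hamp, against 8.61%). The median change of the 10 members was -0.089 at D1, 0.037 at D2 and 0.066 at D3, beside -0.0022, -0.0056 and -0.005 over all probes. At D3, 5 members were higher and 5 lower, and this split depended on the scaling. All 10 were higher with median centring (median 0.34, against 0.14 over all probes) and in the sample channel alone (median 0.16, against 0.0017), and 4 were with the scanner software's ratio (median -0.15).

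In the log2 ratio Saa3 was the member with the largest difference at D3, whereas in the sample channel alone Lcn2 was (2.16, against 1.85 for Saa3). The Saa3 log2 ratio was -2.57, -2.31, -2.01 and -2.23 in the 4 vehicle livers and -1.28 and -2.22 at D1. It was 0.14, -1.31 and -1.73 at D2, and -0.58, 1.47, -1.55 and -1.07 at D3. Each of the 3 D2 and 4 D3 livers thus lay above all vehicle livers, a separation upwards that 4.5% of all probes showed at D2 and 2.94% at D3. The difference from D0 was 0.53 (SE 0.68) at D1, 1.32 (SE 0.60) at D2 and 1.85 (SE 0.55) at D3, with limma adjusted p of 1, 0.46 and 0.41. As a trend from 0 to 100 mg/kg-bw/day it was 1.86 (SE 0.51, limma adjusted p 0.32). The vehicle livers differed little among themselves (SD 0.23, n = 4), whereas the D3 livers spread widely (SD 1.33, n = 4).

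The highest Saa3 value belonged to mouse 17, the liver with skeletal muscle and white fat markers. Without mouse 17 the D3 difference was 1.22 (limma adjusted p 0.55), and without mice 17 and 20 it was also 1.22 (limma adjusted p 0.87). Without D2 mouse 11 the D2 difference was 0.76. Within the slides, which held 7 and 6 of the livers, the D3 difference was 2.89 on slide 5 and 0.82 on slide 6. The part of muscle and fat RNA in the Saa3 level was not tested.

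Lcn2 was the most variable of the 10 in the vehicle livers. Its log2 ratio was 0.67, 0.017, 1.5 and 2.42 in D0, and 2.83 and 0.29 at D1. At D2 it was 3.53, 4.07 and 1.98, and at D3 3.29, 2.72, 2.19 and 3.19. The groups overlapped, with 2 of 3 D2 livers and 3 of 4 D3 livers above the highest vehicle liver. The difference from D0 was 2.04 (SE 0.66, limma adjusted p 0.32) at D2 and 1.70 (SE 0.61, limma adjusted p 0.52) at D3. At D1 it was 0.41 (SE 0.75, limma adjusted p 1) and its sign rested on mouse 8, since it was -0.86 without that liver. The values differed between slides: on slide 5 the difference was 3.46 at D2 and 2.66 at D3, and on slide 6 it was 0.023 and 0.73, with a single D2 liver on slide 6. Neutrophil markers were at 2.20 in the D2 liver with the lowest Lcn2 value, mouse 13, and at 0.50 in the highest, mouse 12.

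**Figure D1:**
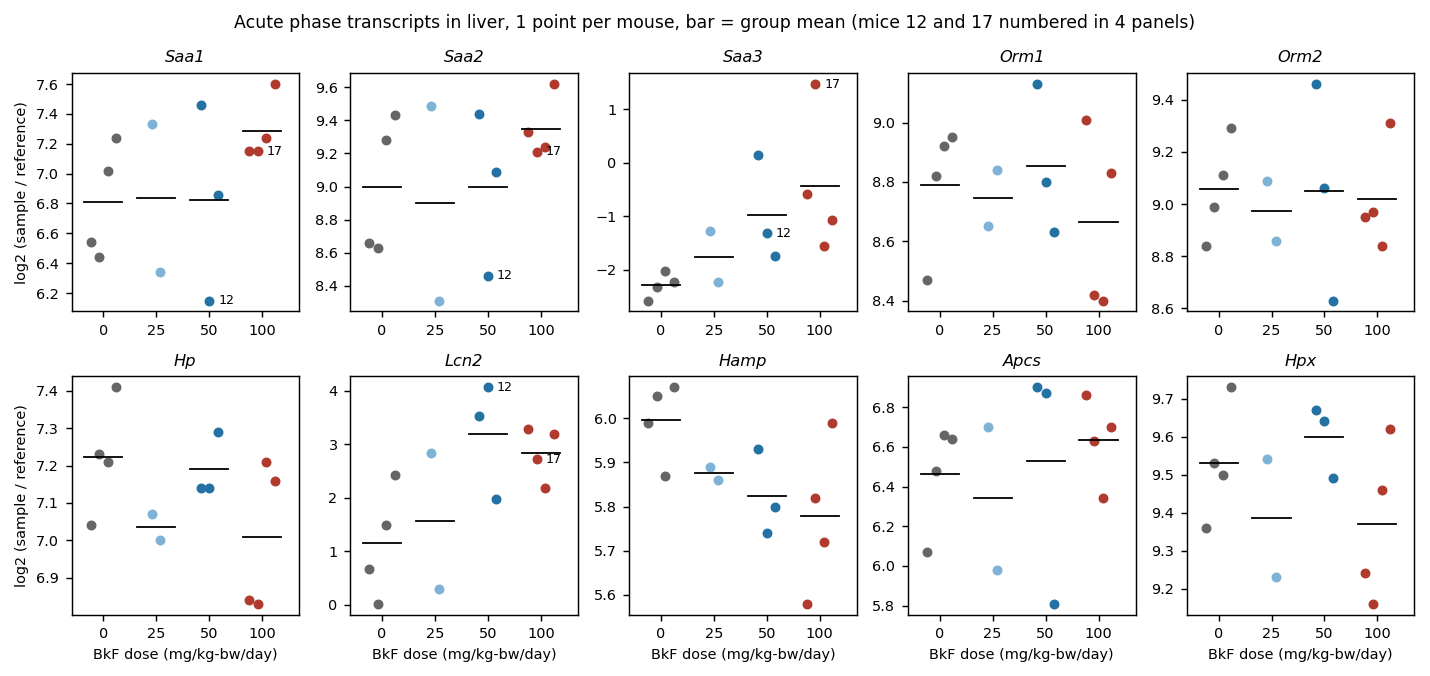
Log2 ratio of sample over reference (vertical axes, each with its own range) of the 10 transcripts in 13 livers by BkF dose (horizontal axes, mg/kg-bw/day); each point is 1 mouse, bars are group means. Saa3 lies between -2.57 and -2.01 in vehicle livers and higher in all D2 and D3 livers, whereas Saa1 and the other panels overlap between vehicle and dosed livers.

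In the log2 ratio the hepatocyte serum amyloids overlapped between groups at every dose. Saa1 was at 6.54, 6.44, 7.02 and 7.24 in the vehicle livers, 7.33 and 6.34 at D1, 7.46, 6.15 and 6.86 at D2, and 7.15, 7.15, 7.24 and 7.60 at D3. Only the highest of the 4 D3 livers exceeded all vehicle livers, and mouse 12 at D2 was the lowest of all 13 in the ratio. The D3 difference was 0.47 (SE 0.28, limma adjusted p 0.72). Saa2 was at 8.66, 8.63, 9.28 and 9.43 in D0, 9.49 and 8.31 at D1, 9.44, 8.46 and 9.09 at D2, and 9.33, 9.21, 9.24 and 9.62 at D3, a difference of 0.35 (SE 0.27, limma adjusted p 0.80), which was 0.11 with the scanner software's ratio. Vehicle mice 1 and 2 were lower than mice 3 and 4 in both transcripts, and the pairs were also on different slides (5 and 6). Within slides 5 and 6 the D3 difference was 0.66 and 0.29 for Saa1, and 0.63 and 0.076 for Saa2. Saa1 and Saa2 are close paralogs, and the probe letters were not used here, so cross-hybridisation between them was not tested.

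Hamp, the iron hormone, ran in the other direction. It was at 5.99, 6.05, 5.87 and 6.07 in the vehicle livers and at 5.58, 5.82, 5.72 and 5.99 at D3, with 3 of the 4 D3 livers below all vehicle livers. The D3 difference was -0.22 (SE 0.10, limma adjusted p 0.64), and it turned to 0.092 with median centring and to 0.098 in the sample channel alone. Hp differed by -0.21 (SE 0.11, limma adjusted p 0.69), from 7.22 ± 0.15 (SD, n = 4) to 7.01 ± 0.21 (n = 4), and likewise turned to 0.11 and 0.079 under those scalings. Median centring moved the median of all probes to 0.14, so that Hp and Hamp remained below that median. In the sample channel alone the median of all probes was 0.0017, and both lay above it.

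The orosomucoids, Apcs and Hpx differed little from vehicle in the log2 ratio. Orm1 was at 8.79 ± 0.22 (SD, n = 4) in D0 and 8.67 ± 0.30 (n = 4) at D3, a difference of -0.12 (SE 0.16). Orm2 differed by -0.038 (SE 0.17), Apcs by 0.17 (SE 0.24) and Hpx by -0.16 (SE 0.12), with limma adjusted p of 0.80 to 0.98 for these 4. Their signs were not stable: with median centring and in the sample channel alone Orm1 turned to 0.17 and 0.083, Orm2 to 0.26 and 0.19, and Hpx to 0.15 and 0.063. Apcs turned to -0.42 with the scanner software's ratio. At D1 and D2 all 8 members other than Saa3 and Lcn2 lay within -0.18 and 0.073 of the vehicle mean in the log2 ratio. In the sample channel alone Hamp at D1 was at -0.58 (SE 0.48), and at D2 Hpx was at 0.35 (SE 0.12, limma adjusted p 0.31) and Saa2 at 0.30 (SE 0.71). With the scanner software's ratio Apcs was at 0.48 (SE 0.76) at D1 and -0.56 (SE 0.67) at D2. With median centring these 8 members lay between 0.058 and 0.32 at D2, against 0.13 for the median of all probes.

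**Figure D2:**
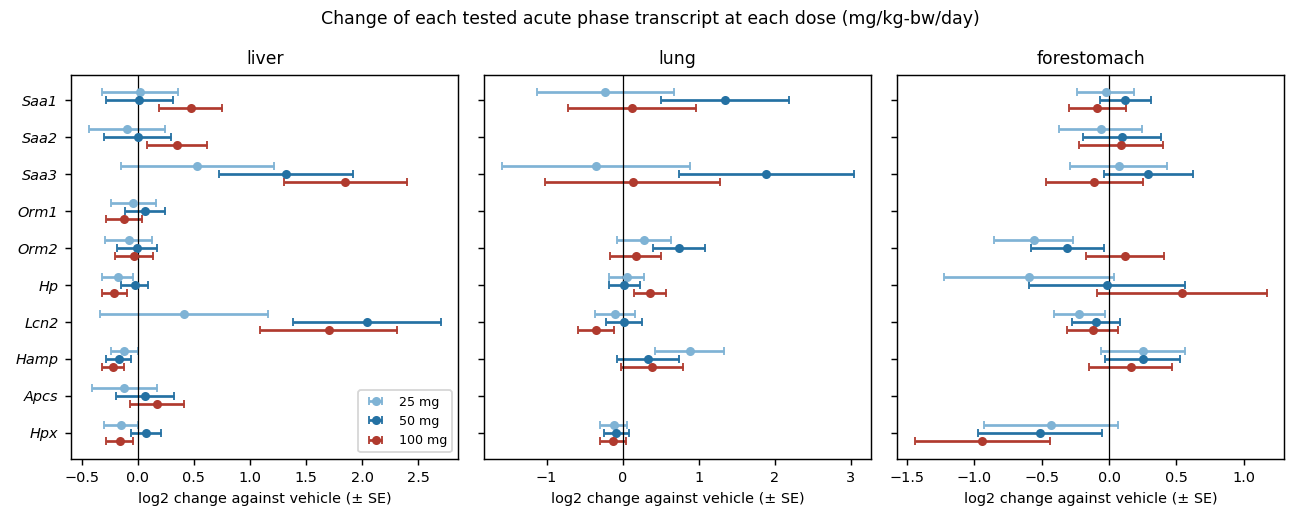
Difference from vehicle in log2 ratio (horizontal axis, points, with SE bars) of each tested member (rows) at D1, D2 and D3 in liver, lung and forestomach. In liver Saa3 and Lcn2 lie to the right at the 2 higher doses (1.32 and 2.04 at D2, 1.85 and 1.70 at D3), and in lung Saa1 and Saa3 have wide bars at D2.

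How far the ratio can show a change in these bright transcripts depends on the reference channel, which held the same RNA on all arrays. For 4 of the 10 members the median reference intensity was at least 2-fold higher on liver than on lung arrays, against 1.47% of liver probes. The Saa2 reference signal ran from 105 to 488 on liver arrays and from 32 to 44 on lung arrays, and that of Hamp from 180 to 506 against 28 to 65. It followed the sample channel: the liver with the lowest Saa1 sample intensity (47340) also had the lowest reference intensity (1002). Hamp spanned 5.61-fold in the sample channel of the livers (5664 to 31784) but 0.49 log2 units in the ratio. Saa1 spanned 8.96-fold (47340 to 424289) against 1.45 log2 units. Saa3 was unlike these, with a reference of 3616 to 4225 in all livers.

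**Figure D3:**
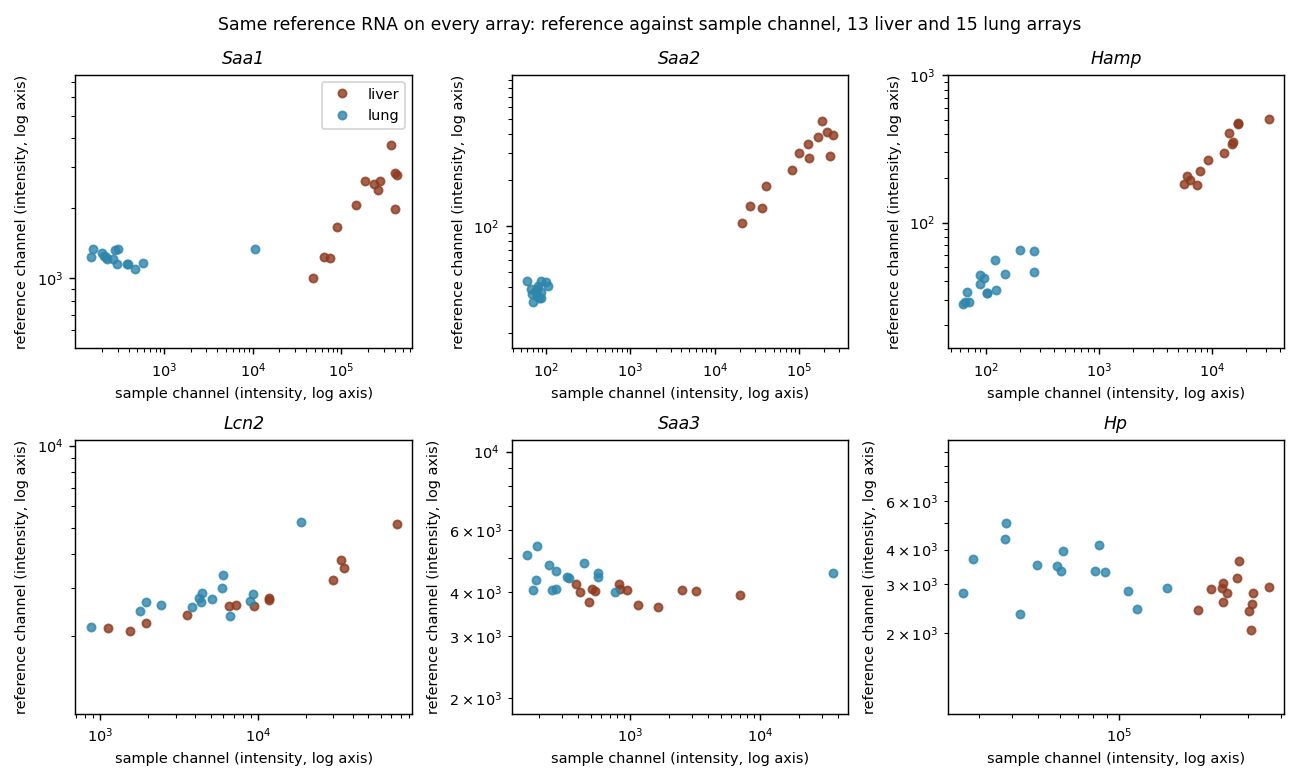
Reference channel intensity (vertical, log axis) against sample channel intensity (horizontal, log axis) for 6 members on 13 liver (brown) and 15 lung (blue) arrays, 1 point per array. The reference signal climbs with the sample signal for Saa1, Saa2 and Hamp in liver and for Lcn2, and stays level for Saa3.

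The dose comparison was therefore repeated in the sample channel alone, a setting added after these values were seen. The D3 difference of Saa1 was then 1.33 (SE 0.58, limma adjusted p 0.57) and that of Saa2 1.44 (SE 0.66, limma adjusted p 0.58), against 0.47 and 0.35 in the log2 ratio. In this channel Saa1 was at 16.63, 15.78, 17.67 and 17.99 log2 units in the vehicle livers and at 18.46, 18.46, 17.86 and 18.60 at D3, so that mouse 19 alone of D3 overlapped the vehicle range. Saa2 was at 15.53, 14.63, 16.82 and 17.01 in the vehicle livers and at 17.56, 17.55, 17.1 and 17.56 at D3, without overlap. Such a separation upwards was shown by 3.01% of all probes in this channel. Before the quantile normalisation the Saa2 intensities did overlap, with D3 mouse 19 at 127800 and vehicle mouse 4 at 132395. Lcn2 differed by 2.81 at D2 and 2.16 at D3, and Saa3 by 1.30 and 1.85. None of the 10 was called in this channel at any dose. Why the reference signal followed the sample was not tested.

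The members were next compared with each other across the 13 livers, over 45 pairs with permutation p-values (100000 permutations) adjusted over the pairs. Saa1 and Saa2 moved together (Pearson r 0.97, permutation adjusted p 9e-04; Spearman rho 0.96, adjusted p 0.00045), within the dose groups (r 0.97), on slide 5 (0.99) and on slide 6 (0.96). Without the 2 livers farthest from the median Saa1 value r was 0.97. The liver pair Hp and Hpx, both scavengers of red cell products, had r 0.81 (permutation adjusted p 0.018; rho 0.59, adjusted p 0.18), and r 0.61 without the 2 outermost livers. Orm2 and Apcs had r 0.76 (permutation adjusted p 0.033; rho 0.75, adjusted p 0.046) and r 0.60 without the outermost pair. These were the 3 pairs below 0.05 by Pearson's r.

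Saa3 and Lcn2, the members with the largest dose differences, had r 0.62 (permutation adjusted p 0.16) and rho 0.79 (adjusted p 0.033). Within dose groups their r was 0.31, so the relation was weaker among livers of the same dose. Lcn2 and Apcs had r 0.69 (permutation adjusted p 0.10) and rho 0.84 (adjusted p 0.015), but r 0.059 with the scanner software's ratio. Orm2 and Hpx had r 0.61 (permutation adjusted p 0.16) and rho 0.74 (adjusted p 0.046). Saa1 and Lcn2 had r 0.48 (permutation adjusted p 0.26). Mouse 12 combined the highest Lcn2 ratio (4.07) with the lowest Saa1 ratio (6.15), although in the sample channel alone vehicle mouse 2 had less Saa1 (15.78, against 16.05 in mouse 12), and r was 0.93 without it and 0.36 to 0.49 without any other liver. Without the 2 livers farthest from the median r was 0.91 by Saa1 and 0.14 by Lcn2. It was 0.35 on slide 5 and 0.96 on slide 6, which lacks mouse 12.

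Mouse 12 stood apart in other transcripts of the liver as well. Metallothionein transcripts, which rise with metals and stress, were at 2.02 (Mt1) and 2.30 (Mt2) in its liver, against -4.86 to -1.04 and -4.33 to -1.91 in the other 12. Cd5l, a macrophage secreted protein, was at 2.64 against 4.95 to 6.75, and the macrophage scavenger receptor Marco was at 4.64 against 1.65 to 3.77. Over all 8 monocyte and macrophage markers tested, its score was -0.67 against the median liver, the lowest of the livers. Its hepatocyte marker score was 0.13 below the median liver.

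The 10 genes, members apart, whose pattern across the 13 livers was most like that of Saa1 were sought among 14492 genes. By Pearson r they were Poldip2 (0.91), Nxpe2 (0.90), Clcn2 (0.88), Arl6ip1 (0.88), Cul4b (0.84), Rpain (0.83), Slc46a1 (0.81), Coq7 (0.80), Rap2a (0.80) and Glb1 (0.80). Psph (-0.90), Golt1b (-0.90), Ets2 (-0.88), Dtnb (-0.86) and Mllt3 (-0.85) were the least alike. Saa2, a member, was closer to Saa1 (0.97) than each of these. Nxpe2 had the widest span of the 15, from 2.13 to 4.24, whereas Cul4b spanned -0.27 to 0.0098. The r values are extremes of many genes over 13 arrays and carry no test.

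Other genes of the acute phase pathway were examined in liver from fixed lists, and 0 were called in any list at any dose. The lists were refitted only at D2 and D3, with the scanner software's ratio, normexp, median centring, Aquantile and the sample channel alone. In those fits 1 gene was called, Smad6 at D3 with median centring. Of 23 other positive acute phase genes tested, 9 were higher and 14 lower at D3 (median change -0.10). That split turned with the scaling, to 21 higher and 2 lower in the sample channel alone (median 0.14, against 0.0017 for all probes) and with median centring (median 0.20, against 0.14). The largest differences were those of Mt1 (0.86, limma adjusted p 0.87) and Mt2 (0.58, limma adjusted p 0.93). All 13 negative acute phase genes, such as albumin and transferrin, were lower at D3, with a median of -0.38 against -0.005 for all probes. Of the 13, 8 had an unadjusted limma p under 0.05, as had 7.8% of all probes. Cyp2e1 (-0.67, limma adjusted p 0.77) and Apoa4 (-0.49, limma adjusted p 0.80) differed most. The 7 hepatocyte markers, 3 of which are among those 13 genes, had a median of -0.37. The size of the shift of the 13 genes depended on the scaling, while their median lay below that of all probes in each scaling run. All 13 were lower with the scanner software's ratio (median -0.43) and with normexp background correction (median -0.37). In the sample channel alone 8 of the 13 were lower (median -0.079, against 0.0017 for all probes), and with median centring 12 (median -0.063, against 0.14 for all probes).

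Of the 9 cytokines and receptors tested, 6 were higher and 3 lower at D3. Il1b, a main inducer, differed by 0.32 (limma adjusted p 0.67) and the TNF receptor Tnfrsf1a by 0.32 (limma adjusted p 0.47). Among 17 transcription factors and feedback genes, 6 were higher and 11 lower (15 and 2 with median centring), with Cebpd at 0.43 (limma adjusted p 0.67) and Hnf4a, the hepatocyte nuclear receptor, at -0.35 (limma adjusted p 0.37). The 6 genes of haemoglobin, haem and lipocalin uptake were split 3 and 3 (6 and 0 with median centring), led by the endocytic receptor Lrp2 (0.29, limma adjusted p 0.52) and the biliverdin reductase Blvrb (0.23, limma adjusted p 0.79).

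Among 20 genes of hepcidin control and iron, 9 were higher and 11 lower at D3, which became 18 and 2 with median centring (median 0.18, against 0.14 for all probes). Hamp2, the paralog of Hamp, was at 5.24, 4.01, 4.31 and 5.2 in the vehicle livers and at 5.43, 5.54, 5.64 and 5.91 at D3. The D3 livers therefore lay above the vehicle livers without overlap, as did the D2 livers (5.63, 5.47 and 5.50). The D3 difference was 0.94 (SE 0.25, limma adjusted p 0.34). Hamp and Hamp2 are close paralogs, and cross-hybridisation of their probes was not tested. Smad6, an inhibitor of the BMP signal that drives hepcidin, differed by 0.56 (SE 0.12, limma adjusted p 0.19), from 0.088 ± 0.12 (SD, n = 4) to 0.65 ± 0.13 (n = 4), without overlap, and by 0.73 (SE 0.13, limma adjusted p 0.043) with median centring. The upward separation of groups was shown by 2.94% of all probes at D3.

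Marker lists of other cells in liver gave the following at D3. White fat markers were higher for 4 of 4 tested genes (median 1.20) and skeletal muscle markers for 3 of 3 (median 1.49). The fat signal was that of mice 17 and 20, and the muscle signal that of mouse 17. Cfd, a fat marker, was at 6.46 in mouse 17 and 4.57 in mouse 20 and at -0.12 to 0.39 in the other livers. Monocyte and macrophage markers were higher for 5 of 8 (median 0.27), and neutrophil markers for 5 of 9 (median 0.03). At D2, the dose of the largest Lcn2 difference, neutrophil markers were higher for 8 of 9 (median 0.68). With the scanner software's ratio they were higher for 9 of 9 at D2 (median 1.6) and 7 of 9 at D3 (median 0.62). Among D2 livers the neutrophil score was uneven, at 2.20 in mouse 13, 0.50 in mouse 12 and 0 in mouse 11. S100a9, a neutrophil and monocyte calgranulin, was at 2.07, 1.21, 1.77 and 3.08 in the vehicle livers and at 4.11, 4.55, 2.50 and 4.04 at D3, a difference of 1.77 (SE 0.70, limma adjusted p 0.58). Its highest value, 7.12, was that of D2 mouse 13. Ltf, a neutrophil granule gene, was at -0.21 to 0.16 in all livers but mouse 13 (2.00) and mouse 17 (2.70). The part of these cells in the Saa3 and Lcn2 levels was not tested.

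The second question was how the tissues differ. In vehicle mice, 8 of 10 members were called higher in liver than in lung, and 9 of 10 higher in liver than in forestomach, where 17.2% and 14.9% of 37644 probes were (40.2% and 33% in either direction). Liver arrays were on slides of their own and read by another software version, so that tissue and slide cannot be told apart. Saa1 was at 6.81 ± 0.38 (SD, n = 4) in vehicle liver and at a mean of -1.55 in lung and -1.38 in forestomach, differences of 8.36 (SE 0.58, limma adjusted p 1.6e-14) and 8.19 (SE 0.58, limma adjusted p 3.4e-14). Hpx differed by 9.03 and 8.56, and Orm2 by 9.11 and 8.53. All 4 vehicle lungs but only 2 of 4 vehicle forestomachs had Hpx well above background, and only 1 of 4 lungs and 1 of 4 forestomachs had Orm2. The forestomach difference of Hpx and those of Orm2 are thus against signals near background. The Hpx reference signal was 370 to 604 on liver arrays and 84 to 107 on lung arrays, and a higher reference makes the liver ratio smaller. None of the vehicle lungs had Saa2, Orm1 or Apcs well above background, and none of the vehicle forestomachs Orm1, Hamp or Apcs, so that their levels there are bounds only. Against lung, Orm1 was at least 451-fold and Apcs at least 64.8-fold higher in liver, and against forestomach Apcs was at least 62.4-fold higher. For the others the fold of the mean ratios was 579 (Saa2, lung), 328 (Orm1, forestomach) and 60.1 (Hamp, forestomach). The Cy5 signals alone gave larger folds of 1300, 371 and 229, and no bound is given for these 3.

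Hp, Lcn2 and Saa3 departed from this order. Hp was at 7.22 in vehicle liver, 5.46 in lung and -0.50 in forestomach, so that the lung was only 1.76 log2 units below the liver (SE 0.38, limma adjusted p 0.00018) and all 4 lungs were well above background. Lcn2 was at 1.15 in liver, 1.75 in lung and -1.11 in forestomach. Its liver minus lung difference of -0.60 (SE 0.42, limma adjusted p 0.24) was within the spread, turned to 0.084 with median centring and was called only without vehicle liver 4 (-1.02, limma adjusted p 0.039), whereas the liver minus forestomach difference of 2.26 (SE 0.42, limma adjusted p 2.7e-05) was called. Saa3 was at -2.28, -3.09 and -3.38, below the reference in all 3 tissues. Its differences of 0.81 (SE 0.85, limma adjusted p 0.45) and 1.1 (SE 0.85, limma adjusted p 0.32) were not called. The second passed with the scanner software's ratio (2.23, limma adjusted p 0.042), with median centring (2.36, limma adjusted p 0.018) and when both groups were fitted alone (1.1, limma adjusted p 0.0016).

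**Figure D4:**
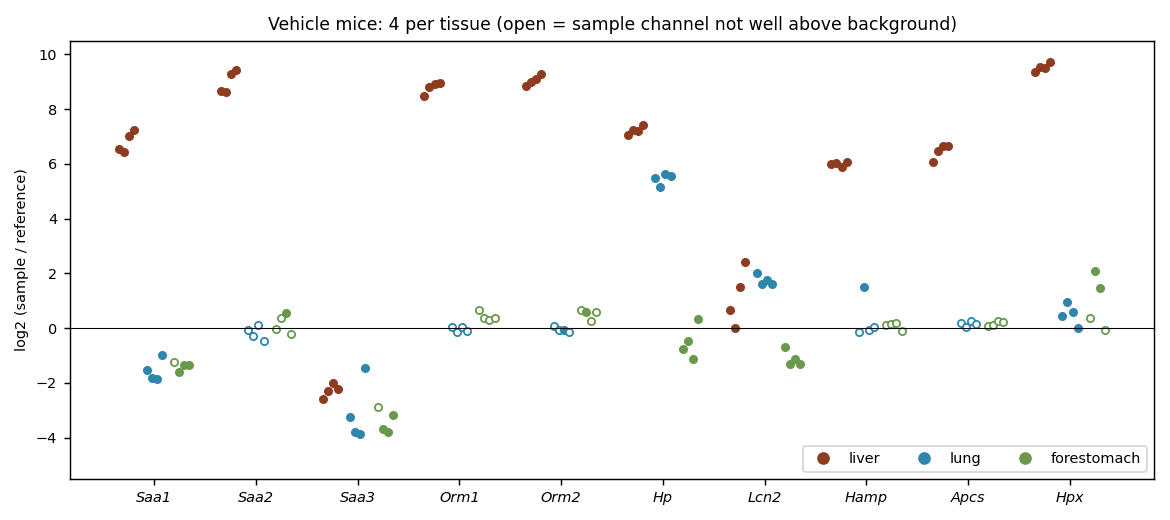
Log2 ratio of sample over reference (vertical axis) of the 10 members (horizontal axis) in 4 vehicle mice per tissue; filled points are well above background in the sample channel and open points are not. Liver points lie above the other tissues for every member except Lcn2, which overlaps lung, and Saa3, whose liver and lung means are -2.28 and -3.09.

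In lung, 7 members could be tested (all but Saa2, Orm1 and Apcs) and 0 were called at any dose or for the trend, where 0%, 0.0153%, 0.0336% and 0.0336% of 32701 probes were. Orm2 at D2 (difference 0.74, SE 0.34, limma adjusted p 1; 0.24 without mouse 12; well above background in 1 of 4 vehicle and 2 of 4 D2 lungs) was the sole member with an unadjusted p under 0.05, a share to set beside 1.76%, 4.25%, 8.02% and 8.48% of probes at D1, D2, D3 and for the trend. The D2 lungs were dominated by mouse 12. Saa1 was at 3.61 in its lung and at -1.19, -1.52 and -1.72 in the other D2 lungs, against -1.53, -1.83, -1.87 and -0.98 in vehicle lungs. Saa3 was at 3.81 in mouse 12, where the other 14 lungs lay between -3.88 and -1.46. Orm1 (2.20), Orm2 (2.19) and Lcn2 (2.59) were also highest in this lung, and Hp (4.96) was lowest. The D2 differences of 1.35 for Saa1 and 1.89 for Saa3 (limma adjusted p 1 for both) came to 0.076 and 0.22 without mouse 12.

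The lung of mouse 12 also carried markers of other cells: skeletal muscle 6.22, monocytes and macrophages 3.85, squamous epithelium 3.1 and neutrophils 1.60 log2 units above the median lung, with lung epithelium 0.87 below. Over all lungs, neutrophil markers were higher than in vehicle for 11 of 11 genes tested at D2 (median 1.5) and for 9 of 11 at D3 (median 0.69). The other lungs ranged from -0.28 to 0.49 for skeletal muscle and from -0.37 to 1.05 for monocytes and macrophages, the highest being vehicle mouse 4, which also had the second highest Saa3 value (-1.46). The part of these cells in the Saa1 and Saa3 levels was not tested.

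**Figure D5:**
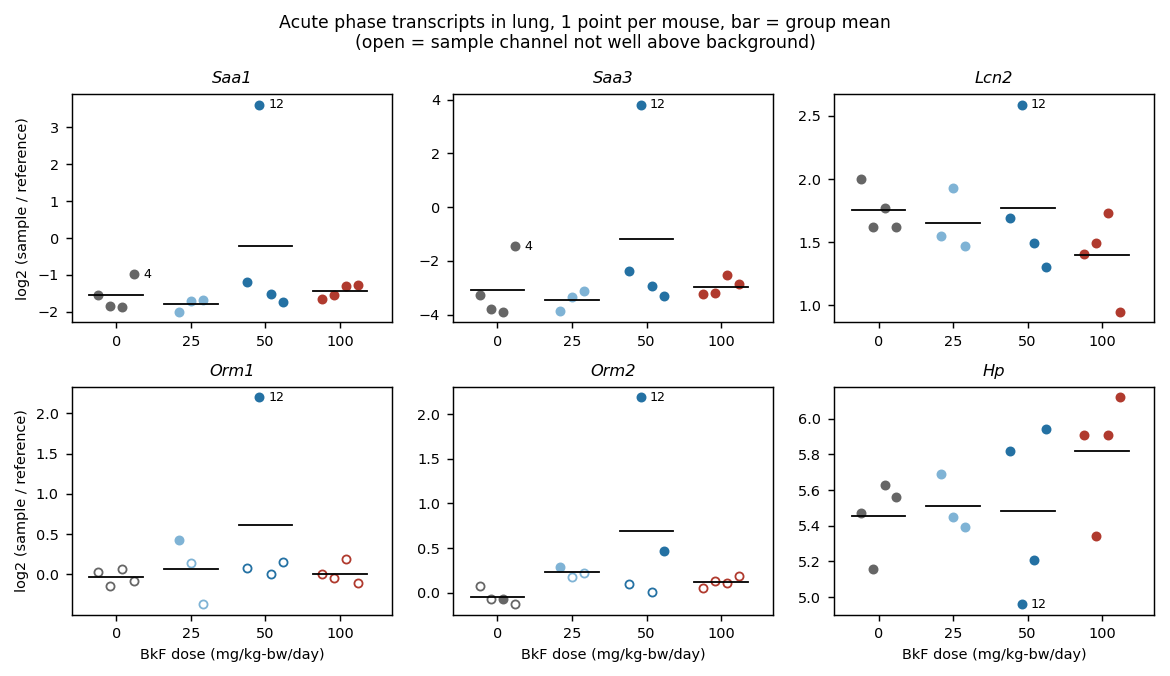
Log2 ratio of sample over reference (vertical axes) of 6 members in 15 lungs by BkF dose (horizontal axes, mg/kg-bw/day); each point is 1 mouse, bars are group means, open points are not well above background. Mouse 12 at 50 mg/kg-bw/day is the highest point for Saa1 (3.61), Saa3 (3.81), Lcn2, Orm1 and Orm2 and the lowest for Hp.

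Lung Hp was at 5.47, 5.16, 5.63 and 5.56 in D0 and 5.91, 5.34, 5.91 and 6.12 in the D3 lungs. Its D3 difference was 0.36 (SE 0.21, limma adjusted p 0.71), with 3 of 4 above all vehicle lungs. Lung Lcn2 differed by -0.35 (SE 0.24, limma adjusted p 0.77) at D3. In the single fit over all tissues, the D3 effect on Lcn2 was 2.05 higher in liver than in lung (SE 0.59, limma adjusted p 0.53) and 1.81 higher than in forestomach (SE 0.62, limma adjusted p 1). For Saa3 these were 1.72 (SE 1.20) and 1.97 (SE 1.25), with limma adjusted p of 1. None of the 10 passed in either contrast, where 0.0266% and 0.00531% of probes were called, and 1 member in each, Lcn2, had an unadjusted p under 0.05, as had 4.83% and 3.26% of probes.

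In forestomach 8 members could be tested (all but Orm1 and Apcs), and 0 were called at D1, D2, D3 or for the trend, as were 0% of 25321 probes in each. None had an unadjusted p under 0.05, which 12.1%, 7.59%, 2.2% and 2.81% of probes had. Hpx had the largest D3 difference (-0.94, SE 0.50, limma adjusted p 1). It was at 0.38, 2.09, 1.45 and -0.063 in D0, with mice 2 and 3 well above background, and at -0.22, 0.17 and 0.12 at D3. Glandular stomach markers stood at 0.20 and 0.19 against the median forestomach in vehicle mice 2 and 3, at -4.93 and -4.54 in vehicle mice 1 and 4, and at -4.18, -0.066 and -3.88 in the D3 mice. Hepatocyte markers were highest in mice 15 (1.32), 2 (0.76) and 3 (0.57), the forestomachs with the highest Hpx. The part of these cells in the Hpx level was not tested. Forestomach Hp was highest in D3 mouse 16 (1.94), where Orm2 (1.54) and the untested Orm1 (1.33) were highest too. That forestomach also had the highest white fat markers, 4.72 above the median, and vehicle mouse 4 was next in fat markers (2.55) with Hp at 0.34. The second highest Hp, 0.41, was that of D2 mouse 15, whose fat markers were at -0.16.

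Finally, the members were compared between tissues of the same mouse, over 15 relations. No relation between liver and lung (13 mice) or liver and forestomach (12 mice) had a permutation adjusted p under 0.98. Liver and lung Saa1 had r -0.44 (permutation p 0.12; rho 0.25, p 0.42). Without the 2 lungs farthest from the median, mouse 12 among them, r was 0.58, so the sign rested on those samples. Lcn2 had r 0.14 with lung (permutation p 0.66; rho 0.022) and -0.16 with forestomach (permutation p 0.63; rho 0.056), which turned to -0.11 and 0.20 without the 2 outermost samples. The sign turned in the same way for Saa2 (r 0.22 to -0.13), Hp (-0.17 to 0.39) and Hpx (0.048 to -0.12) with forestomach and for Hamp with lung (0.07 to -0.27).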

How the data were processed

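RNA of 13 livers, 15 lungs and 14 forestomachs was hybridised with a reference on two-colour Agilent arrays. The authors deposited scanner files with the median intensity of each channel on a linear scale, not background-subtracted, and the software's own log10 ratio. Per the file headers, liver arrays were extracted with Feature Extraction 11.0.1.1, and those of both other tissues with 10.7.3.1. The authors also deposited a table of LOWESS-normalised log2 ratios. Its liver columns did not match their arrays by probe (r -0.00301 to 0.000338, against 0.994 to 0.999 in the other tissues) and were not used; column medians were -0.0425 to -0.00172. The flags of the software for outliers and background were used as deposited.

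Here both channels' medians were normalised by loess within each array, control and outlier spots apart, in limma 3.58.1 under R 4.3.3 (the data.table package, version 1.17.8, for reading; Python 3.11.15 and matplotlib 3.10.9 for plots). Probes entered a tissue's test when flagged well above background in the sample channel on 2 or more livers, or on 3 or more lungs or forestomachs. Probes were named through RefSeq accessions, 27267 of 55681 (49%) with a symbol, on GRCm38.p6 for names only. limma's moderated linear model compared each dose with D0 in 1 fit per tissue, and the tissues in 1 fit over 42 arrays. Dose as a linear term gave the trend. P-values are two-sided, adjusted by the Benjamini-Hochberg method over all probes tested. limma stands in for the shuffled-residual MAANOVA test of the study's methods. Bounds ("at least") come from Cy5 signals after loess, then Aquantile. The 2 to 4 mice per group limit the precision.

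The members, gene lists and alternatives were chosen with earlier results of these data known. Named genes were all 10 members, the 2 genes of each pathway list with the largest absolute D3 change in liver, and the 10 most and 5 least like Saa1. S100a9, Ltf, Cfd, Marco and Cd5l are such genes of marker lists. The script was tested on simulated data. Mouse numbers in the labels tie tissues to mice, and the consensus correlation between tissues of a mouse was 0.0594. Alternatives were the scanner software's ratio, the value table, normexp (offset 50), median centring, Aquantile, no filter, slide or mouse as a block, fits on the compared groups alone, dose rank, and leaving out each array. The sample channel alone (log2 Cy5 intensity, quantile-normalised across the arrays of a tissue), and leaving out livers 17 and 20, were added after seeing the data.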

Additional observations from a re-analysis of the deposited data

Results flagged for a closer look

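Among 57 combinations of member, tissue and dose group with 4 mice, 5 had 1 mouse far from the other 3 by Dixon's test. Chance gives about 1 in 20, and the causes were not tested. Saa1 (gap 0.901 of the group's range) and Saa3 (0.87) in D2 lungs were both set by mouse 12, at 3.61 and 3.81 against at most -1.19 and -2.37 in the other D2 lungs. Hamp in vehicle lungs (0.899) was at 1.5 in mouse 2 and at -0.14 to 0.03 in the others, which were not well above background. Hpx in D2 forestomachs (0.85) was at 1.76 in mouse 15 and at -0.16 to 0.13 in the others. Orm2 in vehicle forestomachs (0.84) was lowest in mouse 3, at 0.25 against 0.60 to 0.67, where 1 of the 4 arrays was well above background.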

How the results depend on the processing

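No setting that was run called a member in a dose, trend or tissue-effect comparison, so that the count of 0 held throughout. The vehicle liver count was 8 of 10 against lung (9 without vehicle liver 4) and 9 against forestomach (10 with the scanner software's ratio, with median centring and in the fit on both groups alone). With the replicate block for mouse, the counts were 8, 9, 0 and 0 in the vehicle and effect comparisons, and no call differed. The Saa3 and Lcn2 differences kept their sign at D2, at D3 and for the trend in every setting run, within-slide values apart, from 0.76 to 2.26 for Saa3 and from 1.32 to 2.81 for Lcn2, with limma adjusted p of 0.083 to 0.91.

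Among D3 differences in liver the sign turned, with median centring and in the sample channel alone, for Hp (0.11, 0.079), Hamp (0.092, 0.098; trend 0.12, 0.21), Orm1 (0.17, 0.083), Orm2 (0.26, 0.19) and Hpx (0.15, 0.063), and with the scanner software's ratio for Apcs (-0.42). Orm2 ranged from -0.14 to 0.04 on leaving out 1 liver, and was 0.02 without D3 mouse 19 and 0.04 without vehicle mouse 4. The sign also turned for vehicle Lcn2 in liver minus lung (0.084 with median centring) and the liver to forestomach correlation of Saa1 (0.078 with the scanner software's ratio, from -0.01). Lcn2 at D1 in liver ranged from -0.86 to 1.68 and that at D2 in lung from -0.26 (without mouse 12; -0.027 and -0.028 without vehicle mice 2 and 4) to 0.17 on leaving out 1 array. Orm1 and Orm2 correlated across livers at r 0.63, 0.24 with the scanner software's ratio and 0.97 in the sample channel alone. The value table was not run for liver or for tissue contrasts, and the mean over probes of a gene gave no other value because each member has 1 probe. For dimness, 3 members went untested in lung and 2 in forestomach.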
